A study of Mus musculus with 5 samples.

Results

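Oxidative phosphorylation is carried out in the inner mitochondrial membrane by complexes I, III and IV, which pass electrons to oxygen and pump protons, and by complex V, the ATP synthase, which uses the proton gradient to make ATP. Most subunits are encoded in the nucleus, made in the cytosol and imported, and a few are encoded by mitochondrial DNA and made inside the organelle. Some subunits of complex IV have paired isoforms, one found in most tissues and another known from a single tissue such as heart, skeletal muscle or testis.

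The genes described here are the nuclear-encoded subunits of complexes I, III, IV and V, taken as the gene symbols beginning with Nduf plus a, b, c, s or v and a number, with Uqcr, with Cox and a digit from 4 to 8, or with Atp5. Symbols ending in -ps were left out. The rule found 80 of 32285 genes: 35 of complex I, 8 of complex III, 20 of complex IV (Ndufa4 and Ndufa4l2 included) and 17 of complex V. No expression value was used to choose them. All 80 matched the GENCODE annotation of GRCm38. They were measured by single-cell RNA sequencing in spleens of mice of the C57/BL6 strain that had received, 48 h earlier and by the intravenous route, saline, live or apoptotic splenic cells from Balbc donors (allogeneic), or live or apoptotic splenic cells from B6 donors (isogeneic). Each of these 5 groups was 1 library, and the number of mice behind a library was not given in the sources used here. Cells had been enriched magnetically for CD45 and, apart from that, for dendritic cells (DCs), and recombined in equal parts, so class sizes do not give the makeup of a spleen.

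Barcodes were kept from 1000 unique molecular identifiers (UMIs, each counting 1 captured transcript) and 500 genes upwards, if mitochondrial UMIs made up no more than 10%. The apoptotic allogeneic library was given with 2491 barcodes, the other 4 with 6794880 each. This left 16271 cells, between 1186 (live allogeneic) and 6380 (apoptotic isogeneic) per library, with median depths of 2298 to 4984.5 UMIs. Pairs of libraries shared 0 to 8 kept barcodes. In the kept cells the 80 genes held 1718868 of 86687472 UMIs, or 1.98%. Complex V gave 32.7% of these, complex IV 29.4%, complex I 27.1% and complex III 10.8%. Members with at least 20 UMIs numbered 76, and 72 members were seen in over 10% of cells, while Cox7b2 and Cox8b had 0 UMIs. The members with the most UMIs were Ndufa13 and Ndufa2 in complex I, Uqcrh and Uqcr10 in complex III, Cox4i1 and Cox8a in complex IV, and Atp5e and Atp5l in complex V.

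Cells were clustered without the 80 genes, and a cluster was called like a cell type from marker genes. Of 20 classes, 9 had at least 30 cells and 50000 UMIs in every library. The class called cDC2-like (type 2 conventional dendritic cells, known for presenting antigen to helper T cells) held 2 clusters with 8 and 5 of the cDC2 markers, more than of any other type. A cluster of 456 cells led by Cd209a had 6 cDC2 and 6 classical monocyte markers and is described under its leading gene. The erythroid-like cluster led by Car1 had 469 cells and a median of 31769 UMIs, with 5 erythroid, 3 progenitor and 2 megakaryocyte markers. At a finer clustering it fell into 288 cells led by Car1 and 181 cells led by Pf4. The latter were called megakaryocyte-like on 8 megakaryocyte markers, but also had 7 progenitor markers. The other erythroid-like cluster, led by Hbb-bs, had 342 cells and too few in 3 libraries to be compared. Both separations were made after the clusters' markers had been seen. The live isogeneic library stood apart: its CPM (UMIs of a gene scaled to the same total in every class and library) of the non-coding gene Gm42418 ran from 21500 to 94600 over the 9 classes and were the highest of the 5 libraries in all 9, whereas the saline library had 4880 to 20000. With 1 library per group, no difference between groups was tested. Intervals on ratios and shares are exact 95% intervals and cover counting error only.

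The summed level of the 80 genes differed between cell classes, mostly in the same order in the 5 libraries. Of the 9 compared classes, Car1-led erythroid-like cells stood highest at 31028 ± 1700 CPM (SD, n = 5 libraries), with a range from 28666 to 32837. Next came pDC-like cells (plasmacytoid DCs, known for making type I interferon) at 20441 ± 1960 CPM, cDC1-like cells (DCs known for cross-presentation) at 19872 ± 2120 CPM, and natural killer cell-like cells at 18876 ± 2130 CPM. The Cd209a-led cluster was at 18790 ± 2870 CPM and cDC2-like cells at 18250 ± 2100 CPM. T cell-like cells had 16181 ± 2940 CPM, red pulp macrophage-like cells 15017 ± 2250 CPM, and B cell-like cells 14058 ± 1410 CPM. The spread over libraries holds the 5 different infusions. Among the 11 classes too small to compare in every library, Hbb-bs-led erythroid-like cells had a mean of 32548 CPM (29706 to 34372). The Cst3-led cluster, which had 10 cDC1 markers, had a mean of 24520 CPM, above that of cDC1-like cells. Pclaf-led (22209 CPM), stromal-like (20801 CPM) and classical monocyte-like cells (20616 CPM, on as few as 3 cells in a library) also had means above that of pDC-like cells. Mature DC-like, basophil or mast cell-like, neutrophil-like and Jchain-led cells had means below that of B cell-like cells.

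**Figure D1:**
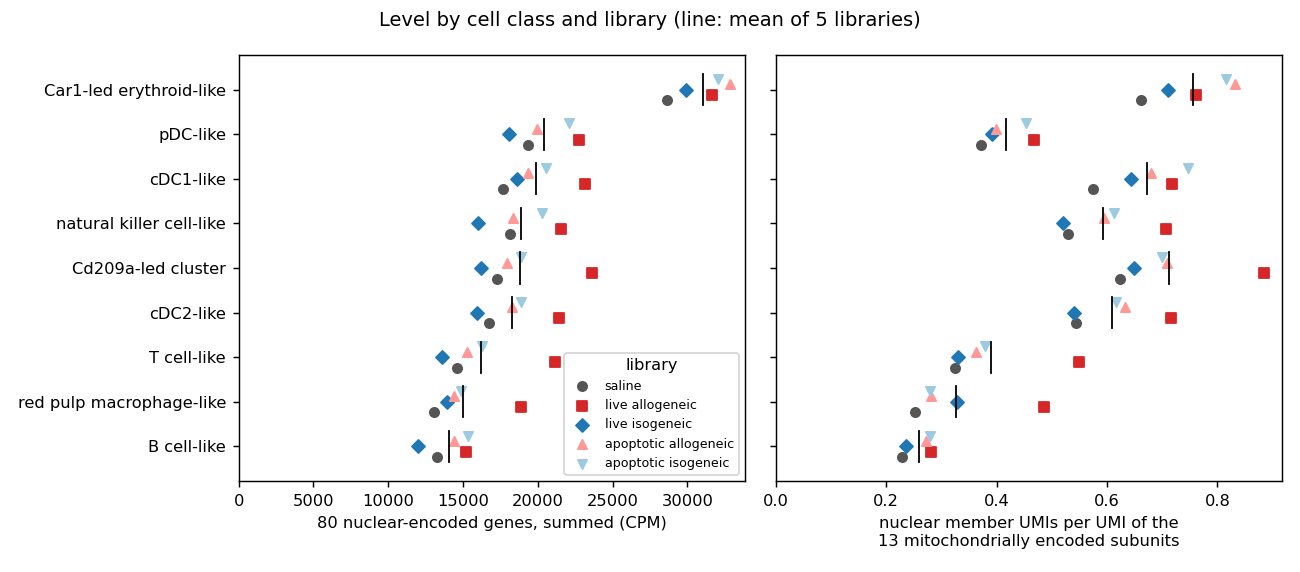
Summed level of the 80 nuclear-encoded genes (left, CPM) and their UMIs per UMI of the 13 mitochondrially encoded subunits (right) in 9 cell classes; each point is 1 library and each line the mean of 5. Car1-led erythroid-like cells lie at 28666 CPM or above and B cell-like cells at 15361 CPM or below.

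Within each library the classes were compared as pairs. Of 36 pairs, 28 had the same order in all 5 libraries. An exact two-sided sign-flip permutation test over 5 libraries cannot go below p = 0.063, and these 28 pairs reached that value, so none passes a threshold of 0.05 (0.0804 after Benjamini-Hochberg adjustment over the 36 pairs). Car1-led erythroid-like cells exceeded cDC2-like cells by 1.71-fold on average (1.48 to 1.87 over libraries). The cDC2-like level was 1.3-fold that of B cell-like cells (1.23 to 1.4) and 1.14-fold that of T cell-like cells (1.01 to 1.19). Among the DCs, the cDC1-like level was 1.09-fold (1.05 to 1.16) and the pDC-like level 1.12-fold (1.07 to 1.17) that of cDC2-like cells. The neighbours pDC-like and cDC1-like changed places between libraries (3 of 5 with pDC-like higher, exact p = 0.3125). Likewise, red pulp macrophage-like cells were above B cell-like cells in 2 of 5 libraries (exact p = 0.5). The other 6 pairs without a constant order were the Cd209a-led cluster with cDC1-like, cDC2-like, natural killer cell-like and pDC-like cells, cDC1-like with natural killer cell-like cells, and T cell-like with red pulp macrophage-like cells.

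At the finer clustering the Car1-led piece had 32446 CPM over all libraries (30960 to 34390) and the megakaryocyte-like piece 22902 CPM (20050 to 24380), a range that overlaps with the 18046 to 22788 CPM of pDC-like cells.

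The order of the classes also depended on the total to which UMIs were scaled. Mitochondrial, ribosomal protein and library-marking genes, Gm42418 among the last, were taken out to give a reduced total. On it, 22 of the 28 pairs kept their order in all 5 libraries and 6 did not. Of these 6, 5 had T cell-like cells as the lower class, and the cDC2-like to T cell-like ratio became 0.978-fold (0.887 to 1.03, cDC2-like higher in 2 of 5 libraries). On that total the ratio of cDC2-like to B cell-like cells was 1.17-fold (1.13 to 1.22), and red pulp macrophage-like cells were below B cell-like cells in all 5 libraries.

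Member by member, 66 of 74 measured genes were higher in Car1-led erythroid-like than in cDC2-like cells in all 5 libraries, against 38.8% of all measured genes. For cDC2-like above B cell-like cells the count was 52 of 74 members, against 28% of all genes. For cDC1-like above cDC2-like cells it was 33 of 74 against 17.8%. In contrast, 23 of 74 members were higher in pDC-like than in cDC2-like cells, against 23.7% of all genes, a share near the background. For cDC2-like above T cell-like cells the count was 30 of 73, against 25.9%.

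The 13 mitochondrially encoded subunits were ordered otherwise than the nuclear ones. B cell-like cells had the highest mean of mitochondrially encoded UMIs in the 9 classes, 54198 ± 2500 CPM (SD, n = 5), and the lowest mean of nuclear ones, with red pulp macrophage-like cells below them in 3 of 5 libraries for the latter. Per mitochondrially encoded UMI, B cell-like cells had 0.26 ± 0.0256 nuclear member UMIs, cDC2-like cells 0.61 ± 0.0719, and Car1-led erythroid-like cells 0.756 ± 0.0711. The ratio in cDC2-like cells was 2.34-fold that in B cell-like cells, from 2.2 to 2.54 over the 5 libraries (exact p = 0.063, the smallest possible). pDC-like cells, with 49110 ± 2200 CPM of mitochondrially encoded subunits, had a ratio of 0.417 ± 0.0416, below cDC1-like cells at 0.672 ± 0.0671. Of 36 class pairs, 31 had the same order of this ratio in all 5 libraries. The limit on mitochondrial UMIs bounds the denominator, and with a limit of 5% the cDC2-like to B cell-like ratio was 1.86-fold.

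The isoform Cox6a2 was found almost wholly in pDC-like cells, which held 3461 of its 3677 UMIs. Cox6a2 (chromosome 7, 128205435 to 128206387, minus strand, GRCm38), the complex IV subunit 6A isoform known from heart and skeletal muscle, was seen in 444 of 480 pDC-like cells (92.5%, interval 89.8 to 94.7%). Its level there was 1087 CPM after saline, 1328 after live allogeneic, 988.2 after live isogeneic, 1096 after apoptotic allogeneic and 1409 after apoptotic isogeneic cells. In each library this was the highest level of the 20 classes. Natural killer cell-like cells, the next of the 9 compared, had 8.597 to 73.13 CPM and a UMI in 18 of 552 cells (3.26%). Of the smaller classes, non-classical monocyte-like cells had 35 UMIs in 5 of 208 cells, and neutrophil-like cells 14 UMIs in 2 of 120 cells. The Cd209a-led cluster, with a median of 6802 UMIs per cell against 5931.5 in pDC-like cells, showed Cox6a2 in 1.75% of cells. Red pulp macrophage-like cells, with a median of 2244.5 UMIs, had a Cox6a2 UMI in 0 of 276 cells, which by the limit of 3 counts allows a share of cells with a UMI of up to 1.09%. With every cell thinned to 1000 UMIs the shares were 63.8% in pDC-like cells, 1.63% in natural killer cell-like cells and 0.658% in the Cd209a-led cluster. In Car1-led erythroid-like cells all 17 Cox6a2 UMIs came from 1 cell.

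The widely expressed partner was present beside Cox6a2. Cox6a1 was seen in 358 of 480 pDC-like cells (74.6%) at 235.1 to 278 CPM, close to the 255.9 to 334.7 CPM of cDC2-like cells. Cox6a2 made up 16.9 to 18.4% of the complex IV level of pDC-like cells in each library. With it, the complex IV level of pDC-like cells was 1.16 to 1.28-fold that of cDC2-like cells, higher in 5 of 5 libraries. Without it, the ratio ran from 0.962 to 1.05 and was above 1 in 2 of 5 libraries. The summed level of the other 79 genes in pDC-like cells lay between 1-fold and 1.1-fold that of cDC2-like cells.

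A second isoform was highest in both erythroid-like classes. Cox6b2 (chromosome 7, 4751792 to 4753094, minus strand), the subunit 6B isoform known from testis, had 2980 UMIs in Car1-led cells and was seen in 392 of 469 cells (83.6%, interval 79.9 to 86.8%). Its level was 211.6 CPM after saline, 199.2 after live allogeneic, 162.2 after live isogeneic, 209 after apoptotic allogeneic and 226 after apoptotic isogeneic cells. Hbb-bs-led erythroid-like cells had 241.8, 207, 172.4, 232.7 and 225.2 CPM in the same order and a Cox6b2 UMI in 159 of 342 cells (46.5%, interval 41.1 to 51.9%), so the ranges of both classes overlapped. Within the Car1-led class, the piece led by Car1 had 211.4 CPM and Cox6b2 in 283 of 288 cells (98.3%), and the megakaryocyte-like piece 107.3 CPM and 109 of 181 cells (60.2%). Of the other classes, the Cd209a-led cluster reached 6.847 to 23.44 CPM and stromal-like cells 10.54 to 26.52 CPM, and neither overlapped with the erythroid-like classes. The stromal-like class was mixed in its markers, with 7 stromal and 6 cDC2 markers. Car1-led cells were the deepest of all classes, and with each cell thinned to 1000 UMIs the share with Cox6b2 was 17.7%, close to the 16.4% of Hbb-bs-led cells, against 3.07% in the Cd209a-led cluster and 0.779% in cDC2-like cells. The partner Cox6b1 was present at 524.3 to 701 CPM in the Car1-led cells.

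**Figure D2:**
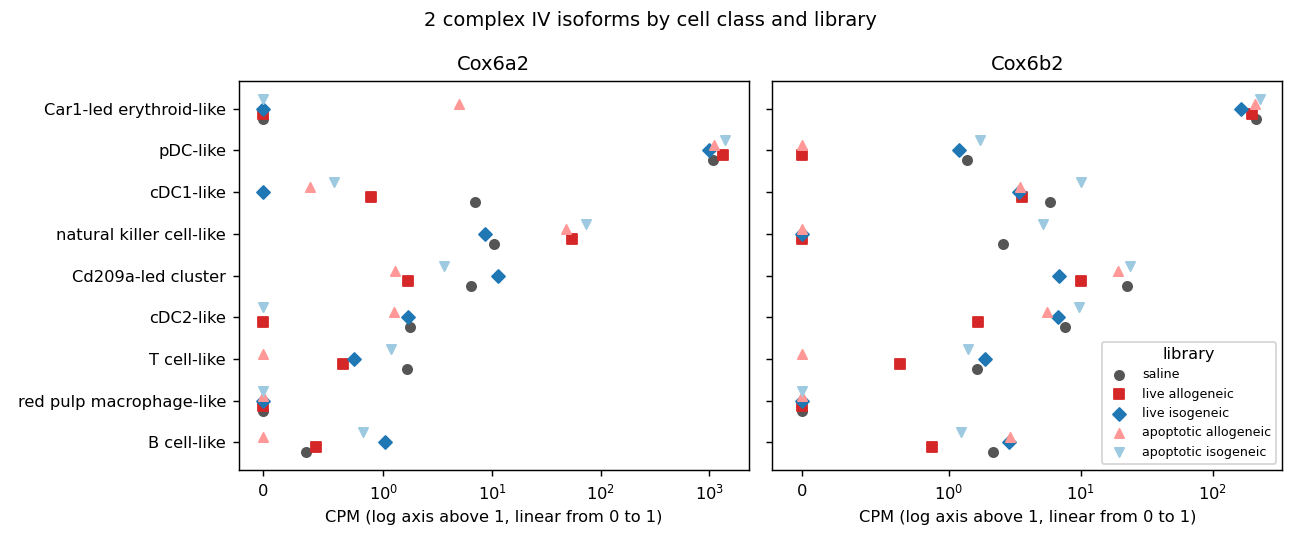
CPM of Cox6a2 (left) and Cox6b2 (right) in 9 cell classes; each point is 1 library, and the axis is logarithmic above 1 CPM and linear from 0 to 1. Cox6a2 lies at 988.2 CPM or above in pDC-like cells and at 73.13 CPM or below in the other 8 classes drawn, and Cox6b2 at 162.2 CPM or above in Car1-led erythroid-like cells.

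The other tissue-restricted isoforms were rare. Cox4i2, the lung isoform of subunit 4, had 17 UMIs in 8 of 276 red pulp macrophage-like cells (2.9%) and at most 2 UMIs in each of the other compared classes. Cox7a1, the heart and muscle isoform of subunit 7A, had at most 12 UMIs in any compared class. Cox8c and Ndufa4l2 had 3 and 6 UMIs in all kept cells. Cox4i1, the ubiquitous subunit 4, was seen in 99.6% of pDC-like cells and 93.8% of cDC2-like cells.

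Beyond Cox6b2, the members with the largest excess in Car1-led erythroid-like cells over the other 8 compared classes were Atp5g1, Uqcr11, Ndufa12 and Atp5b. The Hbb-bs-led erythroid-like class was not among those compared, so whether it shares this excess is not shown here. Atp5g1 encodes subunit c of the ATP synthase rotor, the same mature protein as Atp5g2 and Atp5g3. It had 1082 CPM in the saline library and, after live cells, 1130 (allogeneic) and 1107 (isogeneic), and, after apoptotic cells, 1097 (allogeneic) and 1187 CPM (isogeneic). In cDC2-like cells it had 221 to 313.2 CPM. Within the Car1-led class Atp5g1 was at 1209 CPM in the piece led by Car1 and at 639.2 CPM in the megakaryocyte-like piece. Of the other c-ring genes, Atp5g2 was at 589.9 to 742 CPM in Car1-led cells and 373 to 545.1 CPM in cDC2-like cells. The excess was thus unequal between Atp5g1 and Atp5g2, and Atp5g3 is not given here. Atp5b, the catalytic beta subunit, had 922.1 to 1030 CPM in Car1-led cells and 294.5 to 425.8 CPM in cDC2-like cells. Uqcr11, a small subunit of complex III, had 553.2 to 783.8 CPM and Ndufa12, an accessory subunit of complex I, 302.1 to 357.5 CPM in Car1-led cells. None of these ranges overlapped with those of cDC2-like cells.

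The promoters of both isoform pairs' available members, and of Cox5b, are shown to set the promoter of a restricted isoform beside those of widely expressed subunits, Cox5b being the one past 1.5-fold in the most classes. Of the 80 members, 64 matched the RefSeq promoter table by symbol (build GRCm38.p6). Each stretch ends before the first annotated start of its gene and is given 5′ to 3′ on the gene's strand. Capitals mark matches, on either strand, to the letters of 5 motifs that are spelled out with their shares after the sequences. The shares use longer windows, in which Cox6a1 and Cox6b1 each also have 1 ETS match that is not within the printed stretch.
Cox6a1 (chr5:115348982-115349208, minus strand): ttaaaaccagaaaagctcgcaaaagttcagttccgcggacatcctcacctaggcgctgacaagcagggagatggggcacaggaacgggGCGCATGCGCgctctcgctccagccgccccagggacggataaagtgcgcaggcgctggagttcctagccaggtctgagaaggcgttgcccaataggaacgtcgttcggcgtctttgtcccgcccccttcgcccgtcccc
Cox6b2 (chr7:4753095-4753344, minus strand): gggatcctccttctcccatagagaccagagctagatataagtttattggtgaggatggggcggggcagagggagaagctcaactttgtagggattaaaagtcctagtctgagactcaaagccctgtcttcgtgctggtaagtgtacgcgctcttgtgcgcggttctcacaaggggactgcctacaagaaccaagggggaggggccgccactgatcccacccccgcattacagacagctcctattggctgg
Cox6b1 (chr7:30626152-30626364, minus strand): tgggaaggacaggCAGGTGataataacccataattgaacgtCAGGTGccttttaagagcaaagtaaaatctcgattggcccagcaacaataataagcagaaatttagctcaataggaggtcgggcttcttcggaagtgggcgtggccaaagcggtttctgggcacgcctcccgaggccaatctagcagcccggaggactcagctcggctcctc
Cox5b (chr1:36691237-36691448, plus strand): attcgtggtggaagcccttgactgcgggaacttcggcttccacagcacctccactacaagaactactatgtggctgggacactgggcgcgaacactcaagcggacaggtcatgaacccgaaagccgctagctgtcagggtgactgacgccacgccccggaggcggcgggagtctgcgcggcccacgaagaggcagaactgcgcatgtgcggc

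In windows of 250 bases before and 50 after the start, the NRF1 letters GCGCATGCG were found in 8 of 64 matched members (12.5%) and in 1.81% of 27025 promoters in the table. NRF1 is a regulator known for driving nuclear genes of mitochondrial proteins, and the letters overlap with themselves on the 2 strands when the site is a full palindrome, as in Cox6a1. The ETS letters CCGGAAG were in 21.9% of members and 9.12% of promoters, and the YY1 letters AAGATGGCG in 9.38% and 1.49%. The E-box letters CAGGTG were in 20.3% of members and 20% of promoters, and the GATA letters AGATAA in 9.38% and 11.4%. Both strands were searched. A match is a description of the sequence only.

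Between libraries, the level of the 80 genes in cDC2-like cells was higher after live allogeneic than after live isogeneic cells. The summed level was 16757 CPM after saline, 21393 after live allogeneic, 15968 after live isogeneic, 18270 after apoptotic allogeneic and 18860 after apoptotic isogeneic cells. The live allogeneic library was the highest and rested on 76 cells, against 256 to 335 in the others. Its ratio to the live isogeneic library was 1.34-fold (interval 1.312 to 1.368). By complex the ratio was 1.35-fold for I, 1.26-fold for III, 1.36-fold for IV and 1.33-fold for V, while the mitochondrially encoded subunits stood at 1.01-fold. The cell cycle list was 1.38-fold higher in the same comparison, and without cells holding 3 or more cell cycle UMIs the ratio of the 80 genes was 1.27-fold. Gm42418 was at 61650 CPM in the live isogeneic library and at 13570 to 18220 CPM in the others, opposite to the 80 genes. With it, other library-marking genes, and mitochondrial and ribosomal protein genes taken out of the total, the ratio was 1.29-fold. The part of Gm42418 alone was not tested. In sums over a class, more cells with a high level and a higher level in each cell cannot be told apart. Per cell, UMIs of the 80 genes were also counted after every cDC2-like cell had been thinned to the same depth. The lower quartile, median and upper quartile were 15, 22 and 26 UMIs in the live allogeneic library. In the live isogeneic library they were 12, 15 and 19 UMIs. The difference between these per-cell values was not tested.

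Of the 80 members, 72 had at least 20 UMIs in both libraries together. Of these, 22 were at least 1.5-fold higher in the live allogeneic library, against 9.9% of all measured genes, and 0 were at least 1.5-fold lower, against 16.4% of all genes. The median log2 ratio was 0.43 over the members and -0.04 over all 8003 measured genes. Members were more deeply counted than the rest, with a median of 489 UMIs against 81. With mitochondrial, ribosomal protein and library-marking genes taken out of the total, 14 members were past 1.5-fold higher and the summed ratio was 1.29-fold. The share over all genes on that total is not given.

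The 4 highest members were 3 subunits of complex IV and 1 of complex I. Cox7b had 300.2 CPM after saline, 493.8 after live allogeneic, 251.6 after live isogeneic, 332.7 after apoptotic allogeneic and 336.8 after apoptotic isogeneic cells, and the live allogeneic to live isogeneic ratio was 1.96-fold (interval 1.69 to 2.28). The live allogeneic library was highest and the live isogeneic one lowest for this small transmembrane subunit. Cox5b, a subunit that faces the matrix, had 405.7, 546.8, 304.5, 447.5 and 434.5 CPM in the same order of libraries, a ratio of 1.8-fold (1.56 to 2.06). Cox7a2 had 293.1, 427.5, 237.1, 320.9 and 341.3 CPM, also 1.8-fold (1.54 to 2.11). For these 3 genes the live isogeneic library was below saline, so both libraries of the pair moved away from it. Ndufb2, an accessory subunit of complex I, had 132.6 against 72.92 CPM, 1.82-fold (1.36 to 2.42).

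The 4 lowest members were Ndufa10, Uqcrc2, Ndufs1 and Ndufc2. Ndufa10, an accessory subunit of complex I, had 56.34 CPM after live allogeneic and 74.59 after live isogeneic cells, 0.755-fold (0.502 to 1.11). Uqcrc2, a core protein of complex III, was at 0.825-fold (0.602 to 1.11) and Ndufs1, the largest iron-sulphur subunit of complex I, at 0.812-fold (0.454 to 1.38). Ndufc2 had 139.2 against 152.5 CPM, 0.913-fold (0.706 to 1.17). Each of the 4 intervals includes 1. Ndufa9, at 62.96 against 37.85 CPM, was 1.66-fold higher with all cells and 0.952-fold without cells of 3 or more cell cycle UMIs.

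Other lists in the same comparison can be read against the 9.9% of all genes that were higher and the 16.4% that were lower. Of the constitutive proteasome, 8 of 14 measured genes were at least 1.5-fold higher and 0 lower (median log2 0.56). Its members with the most UMIs were Psma7 at 1.43-fold (1.23 to 1.66) and Psmb1 at 1-fold (0.835 to 1.2). For glycolysis, 3 of 14 were higher and 0 lower (median 0.30), with Gapdh at 1.68-fold (1.51 to 1.87) and Gpi1 at 1.17-fold (0.948 to 1.43). Of the tricarboxylic acid cycle enzymes, 0 of 14 were past 1.5-fold in either direction. Mdh2 was at 1.35-fold (1.24 to 1.48) and Cs at 0.979-fold (0.697 to 1.36). Assembly factors of the complexes gave 6 of 35 higher and 4 lower, with Uqcc2, a complex III factor, at 1.73-fold and Cox17, the copper chaperone of complex IV, at 0.95-fold. Regulators of mitochondrial biogenesis gave 0 of 9 higher and 4 lower, with Yy1 at 0.777-fold and Hcfc1 at 0.646-fold. Among subunits outside the symbol rule, 2 of 7 were higher. Cytochrome c (Cycs) was at 1.76-fold (1.45 to 2.11) and Ndufab1 at 1.2-fold (0.898 to 1.58). The ATP, ADP and phosphate carriers gave 1 of 6 higher (Slc25a3 1.22-fold, Slc25a5 1.28-fold). Cell cycle genes gave 8 of 15 higher, with Hmgb2 at 1.29-fold and Pcna at 0.93-fold (0.726 to 1.18). Ribosomal protein genes gave 2 of 85 higher and 4 lower. Of the 13 mitochondrially encoded subunits 0 were higher and 4 lower, with mt-Co3 at 1.11-fold and mt-Atp6 at 0.973-fold.

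The pair of apoptotic infusions gave no such difference in cDC2-like cells. The apoptotic allogeneic to apoptotic isogeneic ratio was 0.969-fold (interval 0.9525 to 0.9852), with a median log2 ratio of -0.05 over 73 measured members and 0.01 over all genes. One member was at least 1.5-fold higher, against 7.5% of all genes, and 1 was at least 1.5-fold lower, against 6.67%. The higher one was Atp5k, subunit e of the ATP synthase, with 242.7 against 142.8 CPM, 1.7-fold (1.43 to 2.03). Next came Ndufa3 at 1.39-fold (1.18 to 1.64), Atp5md at 1.25-fold (1.07 to 1.47) and Ndufa1 at 1.25-fold (0.969 to 1.61). The lower one, Cox6b2, had 5.586 against 9.772 CPM on 9 and 13 UMIs, and its interval (0.216 to 1.45) includes 1. The lowest of the well-counted members were Ndufb11 at 0.768-fold (0.65 to 0.907), Ndufv1 at 0.766-fold (0.536 to 1.09), Ndufb8 at 0.794-fold (0.664 to 0.949) and Ndufv3 at 0.794-fold (0.65 to 0.969).

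**Figure D3:**
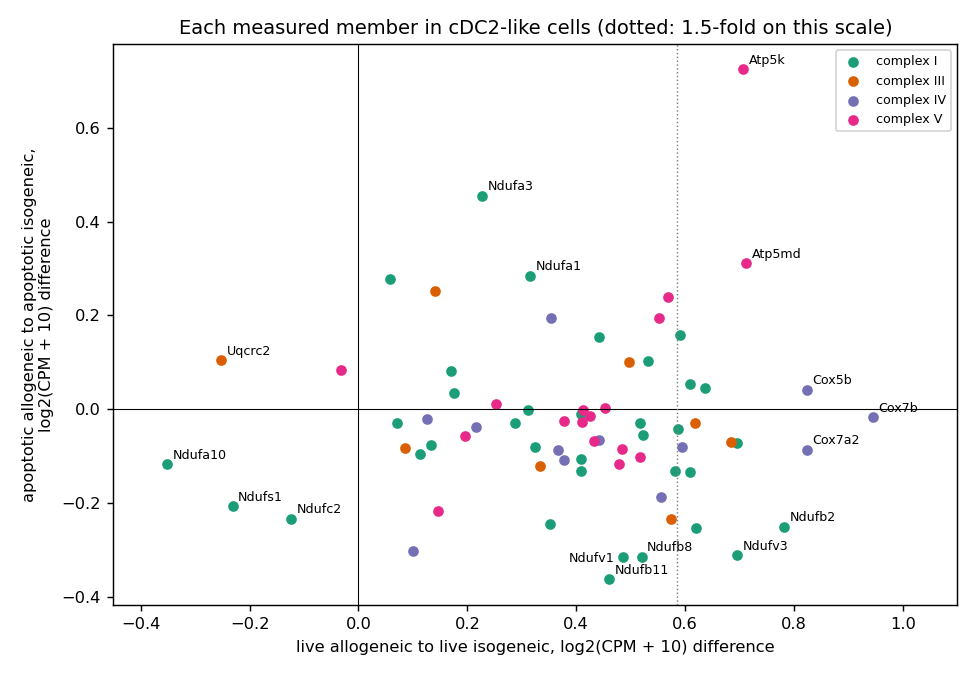
Log2 difference (CPM plus 10) of each measured member in cDC2-like cells, live allogeneic minus live isogeneic on the horizontal axis and apoptotic allogeneic minus apoptotic isogeneic on the vertical axis, coloured by complex. Most points lie to the right of 0, with Cox7b at 0.945, and are scattered about 0 on the vertical axis, with Atp5k at 0.725.

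Against saline, which is the shared denominator of the 4 comparisons, the values in cDC2-like cells were 1.28-fold (interval 1.25 to 1.304) for live allogeneic, 0.953-fold (0.9374 to 0.9687) for live isogeneic, 1.09-fold (1.073 to 1.108) for apoptotic allogeneic and 1.13-fold (1.107 to 1.145) for apoptotic isogeneic cells. After live allogeneic cells 16 of 72 members were at least 1.5-fold higher, against 10.3% of all genes, and 0 lower, against 16.8%. After live isogeneic cells 4 of 73 were higher, against 10%, and 3 lower, against 9.12%. After apoptotic allogeneic cells 7 of 73 were higher, against 5.01%, and 0 lower, against 9.1%. After apoptotic isogeneic cells 2 of 73 were higher, against 5.26%, and 0 lower, against 9.79%.

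Ndufa1, Cox7c and Cox6c were lowest in the saline library in all 9 compared classes. Ndufa1, an accessory subunit of complex I, had 56.02 CPM in the cDC2-like cells of the saline library and, after live cells, 145.8 (allogeneic) and 115.2 (isogeneic), and, after apoptotic cells, 99.3 (allogeneic) and 79.68 CPM (isogeneic). In B cell-like cells Ndufa1 had 33.18 CPM after saline and 75.7 to 108.4 CPM in the other 4 libraries. Cox7c, a small subunit of complex IV, had 308.4 CPM in cDC2-like cells after saline and 442 to 667.8 CPM in the others, and 251.4 against 345.1 to 418.1 CPM in B cell-like cells. After live isogeneic cells Cox7c was at least 1.5-fold above saline in 13 of the 13 classes with enough cells in both libraries, and Ndufa1 in 12 of them. The counts for Cox7c and Ndufa1 were 9 and 8 of 9 such classes after live allogeneic cells, 11 and 10 of 13 after apoptotic allogeneic cells, and 8 and 9 of 14 after apoptotic isogeneic cells. How many of all genes passed 1.5-fold in as many classes is not given here. In cDC2-like cells after live isogeneic cells the lowest against saline on the log2 scale of CPM plus 10 were Ndufs7, a core subunit of complex I, at 0.625-fold (0.5 to 0.779) and Ndufb11 at 0.687-fold (0.585 to 0.806). After live allogeneic cells the highest in cDC2-like cells were Ndufa1 at 2.6-fold (1.93 to 3.52) and Atp5k at 2.25-fold (1.85 to 2.72), and the lowest were Ndufa10 at 0.713-fold (0.474 to 1.05) and Cox7a2l, a factor of supercomplex assembly, at 0.843-fold (0.739 to 0.959). Atp5g3 was 1.51-fold above saline there with all cells and 0.845-fold without cells of 3 or more cell cycle UMIs. Elsewhere against saline, Ndufa3 was at 1.77-fold after apoptotic allogeneic cells and both Cox6c and Ndufb4 at 1.52-fold after apoptotic isogeneic cells, whereas Uqcrfs1, the Rieske iron-sulphur protein of complex III, was at 0.706-fold (0.545 to 0.911) and Ndufa9 at 0.78-fold (0.556 to 1.09) in the latter. After apoptotic allogeneic cells the lowest were Ndufb11 at 0.791-fold and Ndufs7 at 0.798-fold.

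A higher level after live allogeneic than after live isogeneic cells was seen in every compared class. Summed ratios of live allogeneic to live isogeneic were above 1 in 9 of 9 compared classes: 1.56-fold in T cell-like cells, 1.46-fold in the Cd209a-led cluster, 1.34-fold in cDC2-like, 1.36-fold in red pulp macrophage-like, 1.35-fold in natural killer cell-like, 1.27-fold in B cell-like, 1.26-fold in pDC-like, 1.25-fold in cDC1-like and 1.06-fold in Car1-led erythroid-like cells. The live allogeneic library was the highest of the 5 in 7 classes, and the live isogeneic library was the lowest in 6. The ratio for the apoptotic pair lay between 0.905 (pDC-like) and 1.02 (Car1-led erythroid-like). For ribosomal protein genes the live allogeneic to live isogeneic ratio was 1.39-fold in natural killer cell-like and 1.38-fold in B cell-like cells. It was 1.14-fold in Car1-led erythroid-like cells, and all these values were above the summed ratios of the same classes. In the other classes it was below the summed ratio, from 0.958-fold (Cd209a-led cluster) to 1.2-fold (T cell-like). Whether the rise in a class was particular to the subunit genes was not tested.

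**Figure D4:**
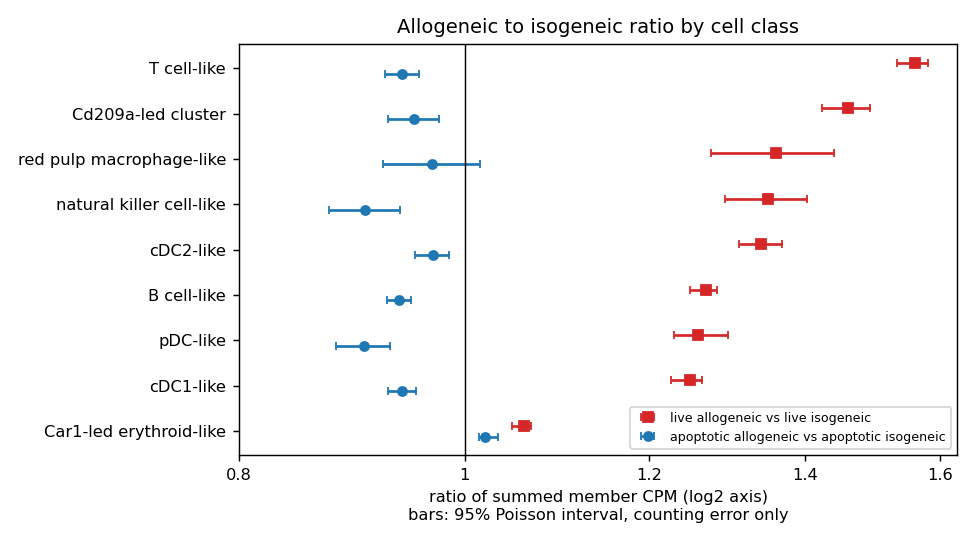
Ratio of the summed level of the 80 genes, allogeneic to isogeneic, for live (squares) and apoptotic (circles) infusions in 9 cell classes, on a log2 axis; bars are 95% Poisson intervals for counting error. Live ratios run from 1.06 to 1.56 and apoptotic ratios from 0.905 to 1.02.

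The counts of members past 1.5-fold varied more. In T cell-like cells 45 of 72 were higher, against 17.5% of all genes, and 0 lower, against 25.1%. The cell cycle list was 3.97-fold higher there, and 20 of the 43 cells of a cycling T cell-like cluster came from the live allogeneic library. Without that cluster the count was 12 and the summed ratio 1.29-fold, and without cells of 3 or more cell cycle UMIs 7 were higher and 1 lower, with a ratio of 1.18-fold. The 17.5% and 25.1% belong to all T cell-like cells, and no share over all genes is given for these smaller sets. In the Cd209a-led cluster 34 of 72 were higher, against 17.7%, and 0 lower, against 15.7%, with cell cycle genes 2.45-fold higher. With this cluster counted as cDC2-like, 29 of 73 members were higher in the joint class and the ratio was 1.4-fold, again without a share over all genes.

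Natural killer cell-like cells, 30 of them from the live allogeneic library, had 21 of 71 members higher, against 12.3%, and 1 lower, against 22.9%, with the cell cycle list at 2.61-fold. Red pulp macrophage-like cells had 22 of 64 higher, against 21.3%, and 2 lower, against 15.5%, on 35 and 50 cells and with the cell cycle list at 5.76-fold. In pDC-like cells 9 of 73 were higher, against 10.2%, and 0 lower, against 18.1%, so the share higher was near the background, and the cell cycle list was at 0.444-fold. B cell-like cells had 7 of 72 higher, against 5.38%, and 1 lower, against 21.5%, with the cell cycle list at 0.698-fold. Of B cell-like cells, cluster 11 held 479 of its 623 cells from the live isogeneic library, and the interferon-gene-led cluster 12 held 228 of its 481 from the live allogeneic library. Without both clusters 3 members were higher, with no share over all genes given, and the ratio was 1.19-fold. In cDC1-like cells 6 of 72 were higher, against 9.94%, and 0 lower, against 10.5%, with the cell cycle list at 1.53-fold. Car1-led erythroid-like cells had 0 of 73 higher, against 4.47%, and 0 lower, against 12.8%, with the cell cycle list at 0.899-fold. The part of cell cycle genes in the class ratios was not tested beyond the values given.

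Several of these counts moved with the processing. No share over all genes is given under the settings below, so their counts cannot be set against a background. With each cell thinned to 1000 UMIs, Car1-led erythroid-like cells had 10 members higher and 6 lower of 70, cDC1-like cells 25 and 3 of 63, pDC-like cells 15 and 4 of 57, T cell-like cells 25 and 2 of 71, and the Cd209a-led cluster 21 and 0 of 46. With TMM library sizes 23 of 72 were higher and 0 lower in B cell-like cells, and 2 and 0 of 72 in cDC1-like cells. With at least 50 UMIs asked for, red pulp macrophage-like cells had 14 of 38 higher and 0 lower.

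Cox5b was the member past 1.5-fold in the most classes, higher in 9 of the 10 classes with enough cells after live allogeneic and live isogeneic cells. In T cell-like cells Cox5b had 260.9 CPM after saline, 486.8 and 201.6 after live allogeneic and isogeneic, and 238.2 and 280.7 after apoptotic allogeneic and isogeneic cells, and in red pulp macrophage-like cells 257.4, 429.7, 158, 238.4 and 242.1 CPM in the same order. The live allogeneic value was the highest and the live isogeneic value the lowest in both. In Car1-led erythroid-like cells Cox5b had 763.9 to 992.4 CPM, with both apoptotic libraries above the live allogeneic one at 893.3. Cox5a, its partner in the same complex, was past 1.5-fold in 7 of the 10 classes, and Ndufb7, Ndufv3 and Uqcr10 in 6 each. Atp5c1, Atp5k, Atp5mpl, Cox7a2, Ndufa9, Ndufb6 and Uqcrq passed it in 5 each. The same count over all genes is not given.

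The highest members elsewhere in this pair were Atp5mpl in B cell-like and pDC-like cells (log2 differences of 0.71 and 0.98, CPM plus 10), Ndufc1 in the Cd209a-led cluster (1.14), Ndufv3 in cDC1-like cells (0.64) and Ndufa12 in natural killer cell-like cells (1.16). In Car1-led erythroid-like cells Uqcr10 was highest (0.34) and Cox7c lowest (-0.24). The lowest elsewhere were Ndufa1 in cDC1-like (-0.19), Ndufb9 in pDC-like (-0.35), Uqcrb in red pulp macrophage-like (-0.21), Ndufs1 in B cell-like cells (-0.46) and Ndufb3 in natural killer cell-like cells (-0.63), and Cox7a2l in the Cd209a-led cluster (-0.23) and T cell-like cells (-0.21).

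For the apoptotic pair the genes seen in several classes were few. Atp5k was at least 1.5-fold higher in 7 of 13 classes of apoptotic allogeneic over apoptotic isogeneic cells, with 256.8 against 111.1 CPM in red pulp macrophage-like and 582.8 against 336.7 CPM in Car1-led erythroid-like cells. Ndufa12 was at least 1.5-fold lower in 6 classes, Ndufa11 in 4 and Ndufb10 in 3, again without the same count over all genes. In T cell-like cells Ndufa12 had 60.67 against 91.7 CPM, and in the Cd209a-led cluster 61.09 against 102.8 CPM.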

How the data were processed

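Single-cell 3′ libraries (kit v3.1, per the labels' protocols) were counted by the authors with Cell Ranger 4.0 on mm10, per the submitters' processing notes. What the authors deposited are raw UMI counts for every gene in each barcode. Barcodes with at least 1000 UMIs, 500 genes and at most 10% mitochondrial UMIs were kept. Scrublet called 117 doublets (1.83%) in the apoptotic isogeneic library and 1 to 8 cells (at most 0.276%) in the others, so it hardly worked and all cells were kept.

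Cells were clustered with scanpy (2000 variable genes without the members, 30 components, 15 neighbours, Leiden resolution 1) into 33 clusters. Clusters were named from markers with a log2 ratio of at least 1 in at least 10% of cells, needing 3 markers and 25% of a class's list. Counts were summed per class and library and scaled to CPM. Ratios have exact conditional Poisson intervals and shares exact Clopper-Pearson intervals at 95%. A member with 20 or more UMIs in the pair of sums was named higher or lower from 1.5-fold on, a rule of size without a test. Log2 differences carry a pseudocount of 10 CPM. The ratio script was tested on simulated data. edgeR 4.0.16 gave TMM sizes for an alternative.

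Named members were the 2 with the most UMIs per complex, the highest and lowest in each comparison, the 6 with the largest class excess, restricted isoforms with partners, and those past 1.5-fold in 3 or more classes. The members, lists and rules were chosen with earlier results of these data known. Promoters came from RefSeq. The NRF1 and YY1 letters were shortened once, after a first search with longer forms, which were also found in a larger share of members than of all promoters. Near-identical gene copies may have split reads, which was not tested. Alternatives covered cell filters, library scaling, low-count filters, pseudocount, thinning, clustering and cell cycle. Leaving out clusters 11, 12, 30 or 32 and joining the Cd209a-led cluster to cDC2-like cells, splitting the Car1-led class and comparing all class pairs on the reduced total were added after seeing the data.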

Additional observations from a re-analysis of the deposited data

Results flagged for a closer look

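For 8 of 9 classes the allogeneic to isogeneic ratio of the summed level was above 1 for live and below 1 for apoptotic infusions. With 1 library per group the difference was not tested. In red pulp macrophage-like cells the counting interval of the apoptotic ratio (0.9224 to 1.015) includes 1. The live ratio divided by the apoptotic ratio was 1.66 in T cell-like cells (1.56 and 0.94), 1.54 in the Cd209a-led cluster (1.46 and 0.951), 1.49 in natural killer cell-like cells (1.35 and 0.906), 1.4 in red pulp macrophage-like cells (1.36 and 0.968), 1.39 in pDC-like cells (1.26 and 0.905), 1.38 in cDC2-like cells (1.34 and 0.969), 1.36 in B cell-like cells (1.27 and 0.937) and 1.33 in cDC1-like cells (1.25 and 0.94). In Car1-led erythroid-like cells both ratios were above 1 (1.06 and 1.02).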

How the results depend on the processing

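No paired analysis was possible because each group had 1 library. The live allogeneic to live isogeneic ratio in cDC2-like cells kept its direction in all settings tried: 1.294 on the reduced total, 1.269 without cells of 3 or more cell cycle UMIs and 1.402 with the Cd209a-led cluster joined, a setting chosen after seeing the data. The count past 1.5-fold was 14 on the reduced total, and the counts in this paragraph come without a share over all genes. For apoptotic infusions the count was 4 without a filter on low counts, 9 with cells thinned to 1000 UMIs, and 1 with at least 50 UMIs, at Leiden resolution 2, with members allowed among the variable genes, and with the Cd209a-led cluster joined. Against saline, live allogeneic gave 1.314 (resolution 2), 1.307 (thinned), 1.186 (cell cycle limit) and 1.332 (Cd209a-led cluster joined). Live isogeneic gave 0.99 (reduced total) and 0.9342 (cell cycle limit). Apoptotic allogeneic gave 1.157 (TMM), 1.12 (reduced total) and 1.112 (cell cycle limit), and apoptotic isogeneic gave 1.184, 1.167 and 1.16 under these, and 1.157 thinned. The cell cycle limit left out cells of 3 or more cell cycle UMIs. These were not scaled to depth, so the limit also takes out deep cells and does not single out cycling ones. The number of cells left is not given here. Of the named genes past 1.5-fold in all cDC2-like cells, 2 changed direction under this limit. They were Ndufa9 (live allogeneic to live isogeneic, 0.9516) and Atp5g3 (live allogeneic to saline, 0.8454). The cause was not tested. Other genes were not counted for a change of direction. The cDC2-like to B cell-like ratio, a pair picked after levels were seen, was 1.172 on the reduced total, the setting that moved it most, and 1.27 to 1.32 with each library left out, and its nuclear to mitochondrial ratio 2.3 to 2.38. TMM was not run for class comparisons, since its sizes were estimated within a class. The live allogeneic library, with 76 cDC2-like cells, limits the precision.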
